A study of Danio rerio with 9 samples.

Results

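Germ-free (GF) zebrafish heads were compared with conventionally raised (CV) heads by RNA-seq, using 3 GF and 3 CV samples out of the 9 samples of the series. Of the 32520 genes in the deposited expression table, the 16089 with a mean of at least 1 FPKM over these 6 samples were compared. FPKM is the number of sequenced fragments relative to transcript length and to the mapped fragments of the sample, so each value is already scaled to the length of the gene and to the total of its own sample. All embryos were of the wild-type Tübingen strain, came from natural spawning and were harvested at 2 dpf (days post-fertilization), when neurons are being born throughout the brain. GF embryos were sterilized early in gastrulation, first with the antibiotic gentamicin and then with a dilute hypochlorite wash, and were kept in sterile medium from then on. CV embryos stood at room temperature during that procedure and received neither agent, so the absence of microbes and the sterilization treatment itself cannot be told apart in this comparison. Each sample was RNA from a pool of 5 heads. The samples of a group are described as biological replicates, without stating whether they came from separate clutches, so the p-values measure the spread between these pools, which may be technical.

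Germ-free zebrafish are made by sterilizing the embryo inside its chorion before the gut opens. At 2 dpf the embryo still lives on yolk, and the microbes it meets are those of its water and chorion surface. Bacterial products can reach the embryo as small molecules, and innate immune receptors that sense such products are already expressed at this age. In older fish and in mice, animals raised without microbes differ from colonized ones in intestinal maturation, lipid uptake, immune gene expression and behaviour. The comparison here asks what the heads of embryos express when microbes are missing during the formation of the brain.

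The sum of FPKM per sample was 666444 to 704307 in GF and 587431 to 657383 in CV, and the number of genes at 1 FPKM or more was 14872 to 15836 in GF and 15423 to 16774 in CV. The 100 most abundant genes held 39.9% to 43.9% of the FPKM in GF and 37.5% to 40.2% in CV. The study's methods give a depth for the sequencing as a whole, but the files hold no read counts, so how many reads lie behind a given FPKM is not known here. The root mean square difference of log2(FPKM + 1) between 2 samples was 0.32 to 0.489 within GF and 0.518 to 0.613 within CV. Sample CV 2 was closer to GF 1 (0.317) and GF 2 (0.338) than to either CV 1 (0.518) or CV 3 (0.613), and CV 3 was the farthest from the GF samples (0.749 to 0.795). The median SD of a gene on the log2 scale was 0.178 in GF and 0.272 in CV.

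**Figure D1:**
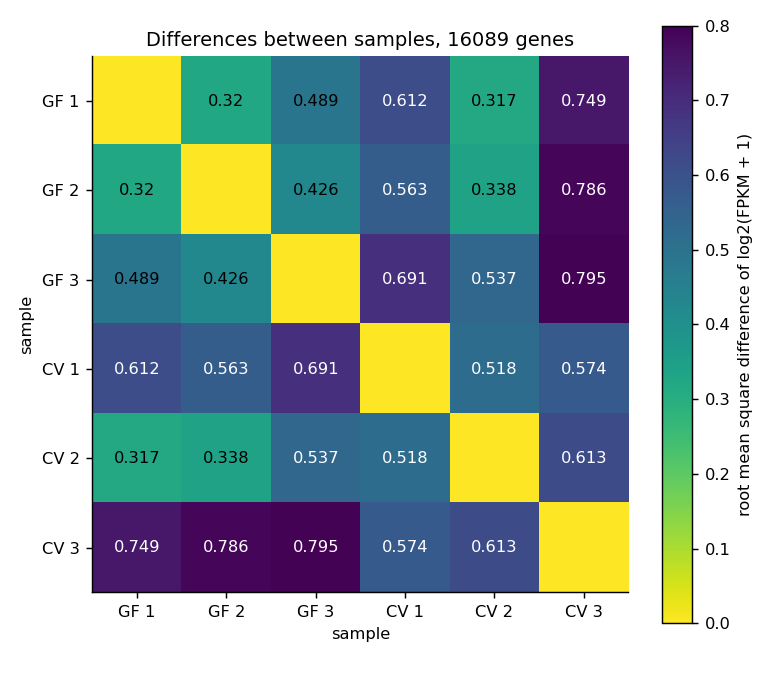
Matrix of the root mean square difference of log2(FPKM + 1) between each pair of the 6 samples over 16089 genes, with GF samples first on both axes and darker cells for larger differences. CV 2 lies at 0.317 from GF 1 and at 0.518 from CV 1, and CV 3 has the darkest cells, up to 0.795 from GF 3.

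Each gene was tested on log2(FPKM + 1) with limma, two-sided, and p-values were adjusted by the method of Benjamini and Hochberg across all 16089 genes. The log2 fold change is the GF mean minus the CV mean on this scale, so negative values are lower in GF, and for genes with low FPKM it is smaller than the true ratio. At an adjusted p under 0.05, 1 gene was lower in GF (0.00622% of those tested) and 0 were higher (0%). At a nominal p under 0.05, meaning the limma p before adjustment, 2639 genes were lower in GF (16.4%) and 507 were higher (3.15%). The highest GF sample was below the lowest CV sample in 2875 genes (17.9%), and the lowest GF sample was above the highest CV sample in 1461 genes (9.08%). These nominal counts are descriptions, since the second smallest adjusted p of the whole comparison was 0.111. With 3 samples on each side, permuting the sample labels exactly can give no two-sided p under 0.1 for a single gene. The samples are bulk heads, so fewer cells of a type and less RNA per cell cannot be told apart.

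Genes lower in GF made up 83.9% of those with a nominal p under 0.05. That split followed the scaling, with 71.0% lower when the samples were rescaled by median of ratios, 95.0% with equal sums of FPKM, 60.8% after quantile normalization and 71.6% among genes with a mean of at least 5 FPKM. Over all genes the median log2 fold change was 0.01, and it became -0.09 with equal sums and 0.12 after quantile normalization. Of all genes tested, 48.7% had a lower mean in GF. The genes lower in GF lay mostly at low and middle levels. Among genes with a mean of 2 to 5 FPKM, 22.0% were lower in GF and 0.89% higher at a nominal p under 0.05, with a median log2 fold change of -0.10. Among the 216 genes with a mean of 500 FPKM or more, 3.24% were lower and 20.8% higher, and the median was 0.30. With equal sums the medians of those classes were -0.20 and 0.17, and after quantile normalization they were 0.11 and 0.07, so the order of the classes depended on the scaling.

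**Figure D2:**
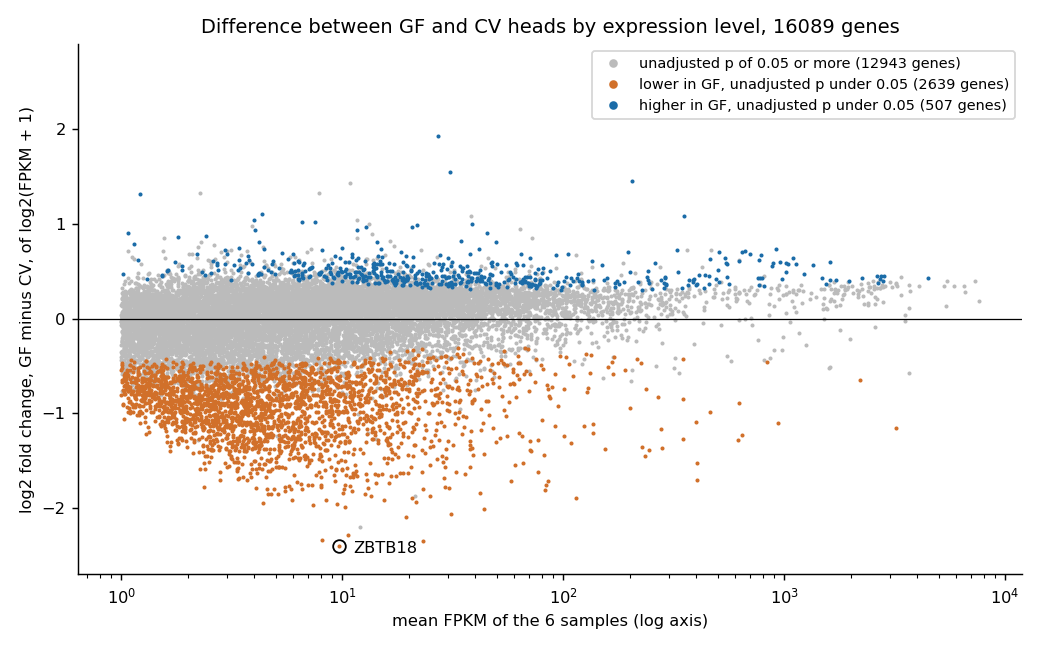
Each point is 1 of the 16089 genes tested, with its mean FPKM over the 6 samples on a logarithmic axis and its log2 fold change, GF minus CV, on the vertical axis. The 2639 genes lower in GF at a nominal p under 0.05 lie mostly below 50 FPKM, as do most of all genes tested. Most of the 507 higher genes lie nearer to 0, and the circled gene ZBTB18 is the single one past an adjusted p of 0.05.

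The gene that fell in GF was ZBTB18 (ENSDARG00000028228), a zinc finger repressor of transcription that in mice is needed for neurons of the cerebral cortex to differentiate. ZBTB18 had 2.78, 2.60 and 1.86 FPKM in GF 1, 2 and 3, against 17.0, 16.5 and 17.2 FPKM in CV 1, 2 and 3. The CV samples lay within 1 FPKM of each other and far above every GF sample, so CV 2 was the lowest of the CV samples by a small margin only. Its mean was 2.41 ± 0.489 FPKM in GF and 16.9 ± 0.355 FPKM in CV (SD, n = 3 each), a ratio of 0.142, and the log2 fold change was -2.40 (standard error 0.18) with an adjusted p of 0.00823 in limma. The adjusted p from limma ranged from 0.000266 to 0.0937 over the alternatives and was over 0.05 without a filter (0.0879), without CV 1 (0.0692), without CV 3 (0.0504), without GF 1 (0.0555) and without GF 2 (0.0937).

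The other genes with the largest differences were lower in GF without passing the adjusted test, with adjusted p of 0.111 or 0.114 from limma. They were, besides ZBTB18, 11 genes with a mean of at least 5 FPKM, a nominal p under 0.05 and no overlap between the groups. OTP (ENSDARG00000014201), a homeobox factor of hypothalamic neurons, had 8.57, 5.07 and 4.53 FPKM in the GF samples, against 49.2, 13.3 and 58.8 FPKM in the CV samples (log2 fold change -2.36, standard error 0.49). A second, more abundant OTP gene, ENSDARG00000058379, averaged 80.4 FPKM in GF and 70.4 FPKM in CV (0.18). TOX, a DNA-binding protein with a high mobility group box, had 3.53, 1.91 and 2.096 FPKM in GF, against 15.1, 4.59 and 23.6 FPKM in CV (-1.92, standard error 0.48). In the first OTP gene and in TOX, CV 2 was the CV sample nearest to GF.

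A pair of subunits of the BAF complex, which moves nucleosomes and is used in changing subunit combinations as neural progenitors become neurons, stood among these genes. SMARCC1 had 2.76, 2.66 and 2.04 FPKM in GF, against 19.8, 6.64 and 29.9 FPKM in CV (log2 fold change -2.29, standard error 0.44). SMARCE1 had 16.3, 13.6 and 16.8 FPKM in GF, against 72.6, 36.8 and 106.6 FPKM in CV (-2.02, standard error 0.33). The GF samples were close together in both, and the CV samples spread over a wide range above them.

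Several of the genes handle RNA or carry cargo into and out of the nucleus. The RNA helicase ddx3xb, which helps ribosomes start on structured mRNAs, had 10.8, 8.73 and 10.3 FPKM in GF, against 47.7, 21.0 and 87.4 FPKM in CV (log2 fold change -2.06, standard error 0.42). The nuclear RNA-binding protein hnrnpr had 9.22, 6.53 and 6.87 FPKM in GF, against 43.6, 14.3 and 48.7 FPKM in CV (-1.94, standard error 0.41). The nuclear pore protein NUP50 had 3.68, 4.26 and 7.24 FPKM in GF, against 36.1, 7.36 and 33.9 FPKM in CV (-1.91, standard error 0.53). For NUP50 the groups came close to overlapping, because CV 2 was only just above GF 3. ZSWIM8, the substrate receptor of a ubiquitin ligase that marks microRNA-bound Argonaute proteins for destruction, had 2.02, 1.48 and 1.51 FPKM in GF, against 11.7, 4.13 and 14.6 FPKM in CV (-1.92, standard error 0.38).

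The remaining members of this group were DPYSL2, MAP4K4 and UBAP2. DPYSL2, which promotes microtubule assembly in growing axons, had 8.36, 5.93 and 3.91 FPKM in GF, against 28.4, 13.6 and 56.8 FPKM in CV (log2 fold change -2.09, standard error 0.46). MAP4K4, a protein kinase involved in cell migration, had 3.48, 2.36 and 2.999 FPKM in GF, against 14.9, 6.28 and 31.9 FPKM in CV (-1.99, standard error 0.46). UBAP2, a ubiquitin-associated protein, had 3.13, 2.66 and 2.49 FPKM in GF, against 16.5, 5.39 and 26.6 FPKM in CV (-1.96, standard error 0.46). In all 12 genes, ZBTB18 included, CV 2 was the lowest CV sample, although for ZBTB18 by less than the spread within GF.

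The genes with the largest differences in the other direction were higher in GF by smaller amounts, with log2 fold changes of 0.74 to 1.55 and adjusted p of 0.111 to 0.172 from limma. FUNDC2, a protein of the outer mitochondrial membrane, had 46.8, 46.4 and 43.5 FPKM in GF, against 9.28, 22.3 and 15.9 FPKM in CV (log2 fold change 1.55, standard error 0.27). SERPINH1 (ENSDARG00000019949), the collagen chaperone of the endoplasmic reticulum, had 446.9, 192.8 and 255.9 FPKM in GF, against 169.5, 77.1 and 81.1 FPKM in CV (1.45, standard error 0.37), and a second SERPINH1 gene (ENSDARG00000075954) had 0.31. In FUNDC2 the GF samples were nearly equal, while in SERPINH1 samples GF 1 and CV 1 were the highest of their groups. CLIC3, of the family of intracellular chloride channels, had the smallest p of the genes higher in GF, with 18.1, 18.0 and 15.9 FPKM in GF, against 8.03, 9.29 and 7.90 FPKM in CV (0.96, standard error 0.16).

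Other genes of this group belong to the actomyosin and septin cytoskeleton, calcium buffering and vitamin A storage. MYL9 (ENSDARG00000038123), a regulatory light chain of myosin, had 29.6, 26.2 and 31.2 FPKM in GF, against 10.6, 12.3 and 21.1 FPKM in CV (log2 fold change 0.99, standard error 0.24), and a second MYL9 gene (ENSDARG00000008030) had 0.34. SEPTIN5 (ENSDARG00000013843), a filament-forming GTPase found near synaptic vesicles, had 19.9, 31.7 and 31.8 FPKM in GF, against 13.7, 15.4 and 11.4 FPKM in CV (0.97, standard error 0.22), whereas a second SEPTIN5 gene (ENSDARG00000036031) averaged 3.23 FPKM in GF and 5.81 FPKM in CV (-0.49). The calcium-binding protein calb2b, a calretinin of neurons, had 82.2, 47.3 and 61.5 FPKM in GF, against 25.4, 46.7 and 35.9 FPKM in CV (0.81, standard error 0.26), where GF 2 and CV 2 nearly met. LRAT, which esterifies retinol, had 11.1, 11.5 and 15.7 FPKM in GF, against 6.83, 6.47 and 8.26 FPKM in CV (0.74, standard error 0.19). The others were PAFAH1B3, a subunit of an enzyme that inactivates platelet-activating factor, with 0.996 on the log2 scale, C1D, a cofactor of the RNA exosome, with 0.94, COX4I2, an isoform of a cytochrome c oxidase subunit, with 0.81, si:dkey-33c14.3 with 1.01 and si:ch211-209m20.7 with 0.90. Across these 12 genes, CV 2 was the CV sample nearest to GF in 5, CV 3 in 4 and CV 1 in 3.

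**Figure D3:**
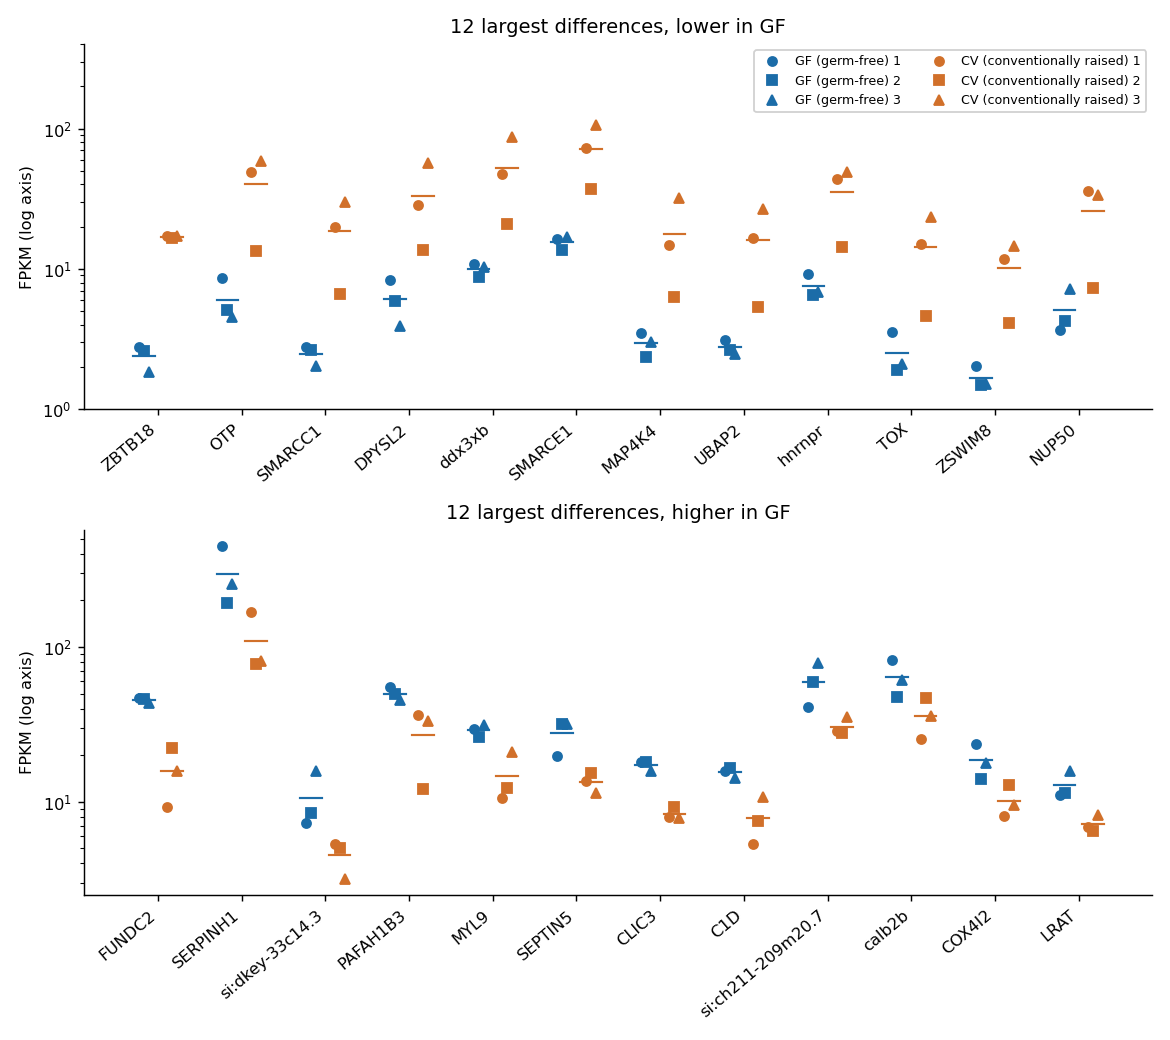
FPKM on a logarithmic axis of the 12 genes with the largest difference in each direction, with GF samples in blue to the left of CV samples in orange, 1 marker shape per sample number and a line at each group's mean. In the upper panel CV 2 (square) is the lowest CV sample of all 12 genes, while ZBTB18 has 3 CV values that almost coincide, and in the lower panel the groups lie closer together.

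CV 2 was the CV sample nearest to GF in most of the genes with small p-values. Of the 16089 genes tested, 2373 were lower in GF without overlap and with a nominal p under 0.05, and CV 2 was nearest to GF in 88.6% of them. In these genes CV 1, CV 2 and CV 3 were above the GF mean by a median of 0.93, 0.44 and 1.34 on the log2 scale. Of 460 such genes higher in GF, CV 2 was nearest to GF in 72.8%. Whatever their p, it was nearest in 82.9% of the 2875 genes (17.9%) with all GF samples below all CV samples. In the 1461 genes (9.08%) with all GF samples above, it was nearest in 71.0%. Over all genes CV 2 was also the CV sample at the smallest distance from each GF sample. That distance includes these genes, so it cannot tell whether the position of CV 2 was particular to them. The share of all genes in which CV 2 was nearest to GF was not counted. Without CV 2, 1827 genes were lower and 103 higher in GF at an adjusted p under 0.05 from limma, whereas without CV 1, CV 3, GF 1 or GF 2 no gene passed.

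The genes were next grouped into 37 lists of families, pathways and cell type markers, which are described by counts and medians. Besides the all-gene median of 0.01, each list is read against the 16.4% of genes lower and the 3.15% higher in GF at a nominal p under 0.05. As given above, these shares and the median change with the level of the genes and with the scaling. The lists were not matched to genes of like level. No member of any list passed the adjusted test. Because the filter is on the mean of all 6 samples, a gene averaging under 1 FPKM in GF can pass through its CV values alone. Such a gene has the lower mean in GF by selection, and the reverse holds for genes under 1 FPKM in CV. A list member counted as lower or higher is one past that nominal limit, and the 3 values of a group are those of its samples 1, 2 and 3. Symbols are those of the gene name table, many of them in the human style, and a symbol can stand for several zebrafish paralogs whose reads may have been shared.

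Large ubiquitin ligases and mRNA decay factors had low medians in GF, which were about as low as those of the cytoskeletal linkers and were less so among members of higher level. Of 18 large ubiquitin ligases tested, out of 26 matched, 14 were lower in GF at a nominal p under 0.05 and 0 higher, with a median log2 fold change of -0.89 (-0.99 to -0.68 over 3 rescalings, and -0.44 among members with a mean of at least 5 FPKM). TRIP12, which ubiquitinates nuclear proteins, had 1.47, 1.28 and 1.61 FPKM in GF, against 5.54, 3.28 and 11.1 FPKM in CV (-1.51, standard error 0.35). WWP1, a ligase of the HECT class, had 3.03, 2.76 and 2.88 FPKM in GF, against 9.78, 5.02 and 11.8 FPKM in CV (-1.27, standard error 0.28). The median level of the 18 ligases was 2.2, 1.87 and 1.8 FPKM in the GF samples, against 4.87, 3.39 and 7.65 FPKM in the CV samples, without overlap of the groups. HUWE1 and HERC1, counted among the 14, averaged 0.891 and 0.397 FPKM in GF and passed the filter through CV (4.27 and 1.997 FPKM).

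The machinery of mRNA decay, which shortens poly(A) tails, removes caps and destroys transcripts with premature stop codons, had 20 of 31 tested members lower and 2 higher, and a median of -0.91 (-1.01 to -0.70 over the rescalings, and -0.48 among members with a mean of at least 5 FPKM). SMG5, a factor of nonsense-mediated decay, had 2.55, 2.26 and 2.25 FPKM in GF, against 7.54, 4.81 and 11.8 FPKM in CV (log2 fold change -1.36, standard error 0.28). UPF1, the helicase at the centre of that pathway, had 3.89, 2.91 and 2.82 FPKM in GF, against 10.3, 5.43 and 12.3 FPKM in CV (-1.25, standard error 0.28). PAN3, of a deadenylase, had a log2 fold change of -1.18. A pair of CNOT4 genes counted as lower averaged 0.61 and 0.84 FPKM in GF and passed the filter through CV (2.91 and 2.68 FPKM). The scaffold of the CCR4-NOT deadenylase, CNOT1, was lower with -1.38, whereas CNOT7, a catalytic subunit of the same complex, was 1 of the 2 members higher in GF (0.58), together with the nonsense-mediated decay factor upf3a (0.45). These last 3 genes lie outside the naming rule and were chosen after their values were seen.

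The splicing machinery was covered by a pair of lists, and their medians had opposite signs. Of 24 large spliceosome proteins, 12 were lower and 0 higher in GF, with a median of -0.40 (-0.52 to -0.33 over the rescalings). SF3A1, of the U2 particle that recognizes the branch point, had 4.93, 4.68 and 4.04 FPKM in GF, against 24.5, 9.86 and 18.9 FPKM in CV (log2 fold change -1.67, standard error 0.30). SF3B2, its partner in that particle, had a log2 fold change of -1.46 and the helicase DDX46 had -1.67. Of the 16 small Sm and LSm ring proteins tested, 0 were lower and 0 higher, and the median was 0.21 (0.08 to 0.27, and 0.08 without CV 3). SNRPG, for example, had 185.0, 190.3 and 203.1 FPKM in GF, against 162.6, 179.1 and 157.1 FPKM in CV (0.21, standard error 0.12). The lists of large proteins were drawn up with earlier results of these data known, and gene length was not measured here, so no test of size was made.

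The cytoskeletal lists also differed from one another. Of 25 cytoskeletal linkers, the long proteins that tie actin, microtubules and membranes together, 15 were lower and 0 higher in GF, with a median of -0.84 (-0.93 to -0.65 over the rescalings, and -1.08 among members with a mean of at least 5 FPKM). SPTAN1, the alpha chain of the spectrin lattice under the axon membrane, had 30.2, 26.7 and 25.0 FPKM in GF, against 68.0, 46.5 and 101.2 FPKM in CV (log2 fold change -1.30, standard error 0.26). The actin and microtubule crosslinker macf1a had 3.27, 2.52 and 2.12 FPKM in GF, against 8.004, 5.33 and 14.0 FPKM in CV (-1.40, standard error 0.31). DST, macf1b and an ANK1 gene (ENSDARG00000074777), counted as lower, averaged 0.70, 0.79 and 0.98 FPKM in GF. They passed the filter through CV (3.09, 2.32 and 2.66 FPKM). Of a pair of genes for the nonmuscle myosin heavy chain MYH9, ENSDARG00000001014 averaged 2.67 FPKM in GF and 10.2 FPKM in CV (-1.47), while the more abundant ENSDARG00000063295 averaged 63.3 FPKM in GF and 58.4 FPKM in CV (0.14). Of 28 kinesins tested out of 45, motors that walk along microtubules, 9 were lower and 0 higher. Their median was -0.40 (-0.51 to -0.28), which was -0.23 without CV 3, -0.26 without GF 3 and -0.20 at a mean of at least 5 FPKM. Among the lower ones, kif1ab and KIF13A averaged 0.36 and 0.54 FPKM in GF and passed the filter through CV (1.95 and 1.48 FPKM). KIF5A, which carries cargo down axons, had 8.82, 6.39 and 5.48 FPKM in GF, against 17.0, 9.38 and 22.8 FPKM in CV (-1.08, standard error 0.31). Of 22 dynein and dynactin genes tested out of 26, 2 were lower and 1 higher, with a median of 0.12 (0.00 to 0.21), which was 0.06 without CV 1, 0.20 without CV 2 and 0.06 without GF 1. The 4 under the filter included the heavy chain DYNC1H1, with 0.145, 0.082 and 0.141 FPKM in GF, against 0.26, 0.675 and 3.85 FPKM in CV. A DCTN1 gene (ENSDARG00000019743) under the filter also had no overlap, with GF lower, and the groups overlapped in DYNC2H1 and DYNLRB2. The subunit DCTN4 was lower with -0.92 and the light chain dynll1, with 441.5, 451.8 and 450.9 FPKM in GF, against 367.4, 394.8 and 297.3 FPKM in CV, was higher with 0.35 (standard error 0.14).

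**Figure D4:**
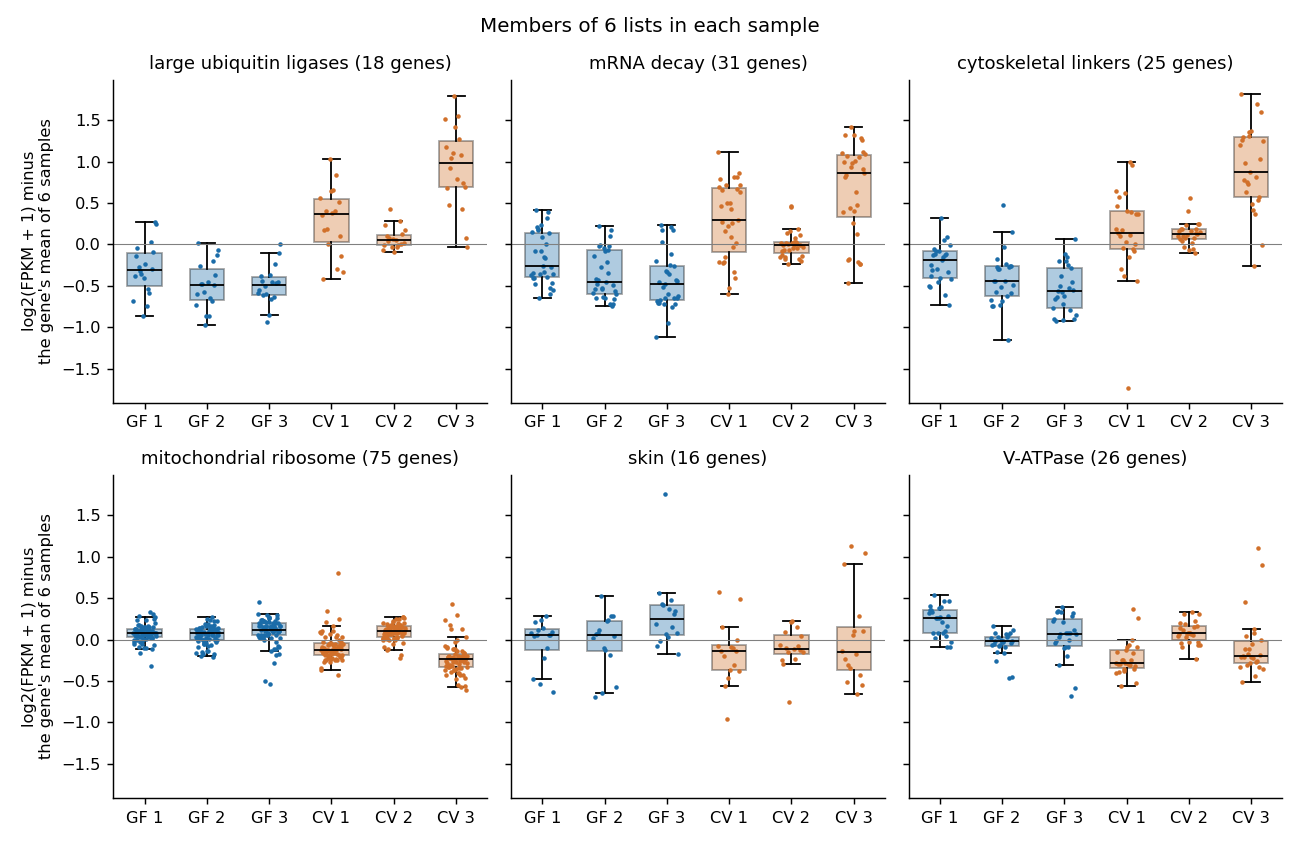
Members of 6 lists in each sample, GF samples on the left in blue and CV samples in orange, as log2(FPKM + 1) minus the gene's mean over the 6 samples, with boxes at the quartiles, a line at the median and whiskers to at most 1.5 times the interquartile range. In the upper lists the GF medians lie below 0 and the CV 3 median lies highest with that of CV 2 near 0, though boxes can cross 0. In the mitochondrial ribosome and V-ATPase lists the CV 2 median lies with those of the GF samples and those of CV 1 and CV 3 lie lower.

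Genes of synapses and excitability were mostly at low FPKM. Of 28 synaptic adhesion genes tested out of 49, 13 were lower and 0 higher in GF, with a median of -0.66 (-0.75 to -0.47 over the rescalings, and -0.41 without CV 3). PTPRF (ENSDARG00000005754), a receptor phosphatase that organizes synapses, had 2.63, 2.08 and 2.32 FPKM in GF, against 7.94, 4.24 and 11.8 FPKM in CV (log2 fold change -1.34, standard error 0.31), and a second PTPRF gene (ENSDARG00000103479) had -0.84. That second PTPRF gene averaged 0.70 FPKM in GF and passed the filter through CV (2.13 FPKM). So did the lower members nrxn2b (0.48 and 2.53 FPKM), nrxn2a (0.73 and 2.39 FPKM), PTPRD (0.93 and 3.89 FPKM) and a DSCAM gene (ENSDARG00000028118, 0.41 and 2.07 FPKM). Their count as lower is no separate support, and the median also includes members that passed in this way. The axonal adhesion proteins cntn1a and CNTNAP2 had log2 fold changes of -1.11 and -1.15. Of 72 voltage-gated channel subunits, 14 passed the filter on mean FPKM, of which 3 were lower and 0 higher, with a median of -0.32 that turned to 0.21 among the members with a mean of at least 5 FPKM and was -0.60 without CV 1 and -0.13 without CV 3. The lower ones were kcnc3a, a potassium channel of fast-spiking neurons, with -0.70, the calcium channel cacna1aa with -0.63 and the muscle calcium channel CACNA1S (ENSDARG00000029457) with -0.68, whose second gene (ENSDARG00000042552) had -0.38. These 3 lower genes averaged 0.714, 0.682 and 0.951 FPKM in GF, against 1.87, 1.63 and 2.21 FPKM in CV. They passed the filter through CV only, so their count as lower is no separate support.

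The neural marker lists leaned to lower values in GF, but their most abundant members did not all do so. Of 17 neural progenitor markers tested, 8 were lower in GF and 0 higher, and the median was -0.31 (-0.44 to -0.24 over the rescalings, and -0.17 at a mean of at least 5 FPKM). NOTCH3, a receptor that keeps progenitors from differentiating, had 2.1, 0.849 and 1.65 FPKM in GF, against 10.5, 3.88 and 11.8 FPKM in CV (log2 fold change -1.85, standard error 0.38). A pair of NOTCH1 genes had log2 fold changes of -1.67 (ENSDARG00000103554) and -1.41 (ENSDARG00000052094). ENSDARG00000052094 averaged 0.70 FPKM in GF and passed the filter through CV (3.8 FPKM). The most abundant marker, the fatty acid binding protein FABP7 (ENSDARG00000007697) of radial glia, had 1155, 879.0 and 1172 FPKM in GF, against 663.3, 965.2 and 882.9 FPKM in CV, with overlapping groups (0.36, adjusted p = 0.343 from limma). The summed level of the list was 1334 to 1621 FPKM in GF and 1252 to 1422 FPKM in CV, so the sum did not follow the median of its members.

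Of 23 neuronal markers, 6 were lower and 4 higher in GF, with a median of -0.35 (-0.47 to -0.29), which was -0.17 without CV 3. ELAVL3, the RNA-binding protein used to mark newborn neurons, had 41.9, 38.4 and 29.7 FPKM in GF, against 113.2, 53.8 and 148.3 FPKM in CV (log2 fold change -1.39, standard error 0.33). The stathmins, which destabilize microtubules, went both ways. STMN2 (ENSDARG00000070537) had 14.3, 11.1 and 11.6 FPKM in GF, against 58.9, 20.7 and 57.7 FPKM in CV (-1.68, standard error 0.36). STMN1 (ENSDARG00000033655) had 577.4, 439.3 and 516.8 FPKM in GF, against 342.8, 416.4 and 349.7 FPKM in CV (0.46, standard error 0.15), and a second STMN1 gene (ENSDARG00000004169) had 0.26. The synuclein sncb was also higher, with 514.1, 390.9 and 364.4 FPKM in GF, against 312.9, 346.2 and 290.1 FPKM in CV (0.41, standard error 0.16). The summed level of the neuronal list was 1813 to 2274 FPKM in GF and 1730 to 2136 FPKM in CV, and these ranges overlapped.

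In the eye, 5 of 19 retina markers were lower and 1 was higher in GF, with a median of 0.03 that turned negative with equal sums (-0.08), after quantile normalization (-0.01), with sample weights (-0.10) and without CV 1 (-0.16), CV 2 (-0.09), GF 1 (-0.11) or GF 3 (-0.06). The photoreceptor factor crx (ENSDARG00000011989) had 7.50, 4.49 and 5.87 FPKM in GF, against 22.1, 11.2 and 33.3 FPKM in CV (log2 fold change -1.64, standard error 0.35), and a second gene with the symbol CRX (ENSDARG00000043483) had -1.72. SIX6 (ENSDARG00000031316), a homeobox factor of the eye field, was higher with 51.3, 37.3 and 38.5 FPKM in GF, against 29.9, 34.1 and 31.3 FPKM in CV (0.39, standard error 0.16), while a second SIX6 gene (ENSDARG00000025187) averaged 1.498 FPKM in GF and 3.15 FPKM in CV (-0.66). The summed retina level was 261.7 to 358.8 FPKM in GF and 281.0 to 373.5 FPKM in CV. Of 17 lens markers other than crystallins, 1 was lower and 3 were higher, with a median of 0.32 (0.19 to 0.38), which was 0.15 without CV 1, 0.21 without CV 3 and 0.08 without GF 1. The lower one, a gene of the lens water channel MIP (ENSDARG00000013963), had 30.05, 35.6 and 30 FPKM in GF, against 62.9, 46.6 and 69.1 FPKM in CV (-0.87, standard error 0.18). The second and more abundant MIP gene, ENSDARG00000037285, averaged 83.6 FPKM in GF and 67.3 FPKM in CV (0.32). The higher ones included dnase1l1l, which degrades DNA in lens fibres (0.70, standard error 0.18), and BFSP2, a beaded filament protein (0.53, standard error 0.20). The summed lens level was 488.3 to 603.7 FPKM in GF and 414.0 to 519.8 FPKM in CV.

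Markers of skeleton and neural crest also had a low median, near those of the neural and endothelial lists. Of 24 cartilage and crest genes, 11 were lower and 1 was higher in GF, with a median of -0.40 (-0.51 to -0.35 over the rescalings), which was -0.63 without CV 2 and -0.24 without CV 3. COL2A1, the main fibrillar collagen of cartilage, had 19.8, 16.0 and 21.8 FPKM in GF, against 56.3, 29.96 and 89.9 FPKM in CV for ENSDARG00000011407 (log2 fold change -1.44, standard error 0.34). Its second gene, ENSDARG00000069093, had -1.28 (standard error 0.38). SOX10, a crest and glial factor, had 1.39, 1.58 and 1.32 FPKM in GF, against 7.17, 2.58 and 7.91 FPKM in CV (-1.40, standard error 0.34). The cartilage matrix protein MATN4, the most abundant of the list, had 176.2, 133.9 and 157.5 FPKM in GF, against 117.7, 150.2 and 176.5 FPKM in CV, and the groups overlapped. The summed level was 699.2 to 782.4 FPKM in GF and 786.7 to 1208 FPKM in CV, without overlap. Of 17 endothelial markers, 5 were lower and 0 higher, with a median of -0.36 that turned to 0.08 among members with a mean of at least 5 FPKM and was -0.14 without CV 3. Among the lower ones, tek, FLT4 and ESAM averaged 0.44, 0.96 and 0.68 FPKM in GF. They passed the filter through CV (1.61, 2.26 and 1.85 FPKM). The blood vessel factor sox18 had 2.61, 2.78 and 1.96 FPKM in GF, against 7.999, 3.14 and 7.79 FPKM in CV (-1.01, standard error 0.31), and the summed level was 128.7 to 142.9 FPKM in GF and 129.4 to 155.7 FPKM in CV.

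In the skin list more members were higher than lower in GF. Of 16 members, 6 were higher and 2 lower, with a median of 0.22 (0.09 to 0.29 over the rescalings, and 0.14 without GF 3). The disulfide isomerase agr1 had 205.9, 273.0 and 252.8 FPKM in GF, against 128.7, 171.1 and 148.9 FPKM in CV (log2 fold change 0.70, standard error 0.16). The annexin anxa1b had 110.2, 106.1 and 126.2 FPKM in GF, against 83.7, 76.5 and 56.6 FPKM in CV (0.67, standard error 0.17). The keratin cyt1 had 2642, 2696 and 3792 FPKM in GF, against 2342, 2090 and 2190 FPKM in CV (0.44, standard error 0.18). In these 3 genes the groups did not overlap. TP63, the factor that maintains basal skin cells, was lower, with 4.18, 4.42 and 6.11 FPKM in GF, against 10.4, 6.21 and 15.5 FPKM in CV (-0.92, standard error 0.30). The summed skin level was 13170 to 15810 FPKM in GF and 11490 to 11950 FPKM in CV, and the part of skin in the other differences was not tested.

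Few markers of the other tissues passed the nominal limit. Of 20 muscle markers 1 was lower in GF, the calcium pump atp2a1, with 362.0, 816.9 and 589.4 FPKM in GF, against 1263, 746.1 and 1861 FPKM in CV, and the summed muscle level was 26120 to 47260 FPKM in GF and 35130 to 38380 FPKM in CV. The muscle median of -0.16 turned positive with sample weights (0.10) and was -0.02, -0.34 and -0.08 without GF 1, GF 2 and GF 3. None of 11 erythrocyte and none of 17 liver and yolk markers had a nominal p under 0.05 in limma, and their summed levels were 3201 to 3343 and 1971 to 3322 FPKM in GF, against 1624 to 3949 and 1626 to 5104 FPKM in CV. The erythrocyte median of -0.06 turned positive in 7 alternatives, median-of-ratios rescaling and quantile normalization among them, and lay between -0.23 and 0.11 with 1 sample left out. The liver and yolk median of -0.13 turned positive without CV 1 (0.17) and without GF 1 (0.00) and was -0.48 without CV 3. Of 7 hatching gland markers 1 was higher, AGR2, a disulfide isomerase, with a log2 fold change of 0.59, and the list's median was 0.27 (0.51 without CV 1 and 0.53 without GF 2) and its sum 799.5 to 1640 FPKM in GF and 598.7 to 1122 FPKM in CV. Of 11 ear and hair cell markers 1 was higher, the calcium-binding protein s100t, with 44.8, 44.8 and 67.0 FPKM in GF, against 24.0, 35.0 and 33.7 FPKM in CV (0.73, standard error 0.21), and the list's median of -0.12 turned to 0.50 among members with a mean of at least 5 FPKM, to 0.10 after quantile normalization and to 0.04 without CV 3. In both AGR2 and s100t every GF sample was above every CV sample. Its summed level was 159.1 to 226.3 FPKM in GF and 109.3 to 168.0 FPKM in CV. No matched marker gene of the 13 lists was at 0 in all 6 samples. The part of each cell type in the comparison was not tested.

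Genes of innate immunity, which include the targets of microbial sensing, showed no member past a nominal p of 0.05 in limma, either lower or higher. Of the 30 matched genes 17 were tested, with a median log2 fold change of 0.12 (0.03 to 0.23 over the rescalings), which was 0.20 without CV 2, 0.02 without CV 3 and 0.03 without GF 1. The inhibitor of NF-kappaB signalling nfkbiaa had 9.68, 11.8 and 9.53 FPKM in GF, against 5.99, 9.94 and 7.68 FPKM in CV (0.37, adjusted p = 0.37 from limma). ANGPTL4, a lipase inhibitor whose intestinal expression is repressed by microbes in mice, had 44.8, 26.5 and 37.3 FPKM in GF, against 19.2, 33.6 and 23.8 FPKM in CV (0.49, adjusted p = 0.321 from limma). Both pairs of groups overlapped. The markers mpeg1.1 and mpx matched no symbol, and several of the 20 matched macrophage and neutrophil genes were MFAP4 genes. Of the 12 tested, LCP1, an actin bundler of leukocytes, was lower with -0.55 and overlapping groups, and 0 were higher. The list's median of 0.10 turned to -0.01 with equal sums and was 0.04 without CV 3 and 0.01 without GF 1. Its summed level was 242.5 to 274.9 FPKM in GF and 205.0 to 370.3 FPKM in CV. A large part of that sum was apoeb, with 114, 129 and 114 FPKM in GF, against 273, 139 and 75.2 FPKM in CV. The number of leukocytes was not tested. The neutrophil lysozyme lyz had 73.5, 82.0 and 109.6 FPKM in GF, against 52.3, 75.0 and 80.6 FPKM in CV, with overlapping groups.

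Immediate early genes, which respond quickly to stimulation, had 33.3% of their tested members lower in GF and 11.1% higher, against 16.4% and 3.15% of all genes. Of 18 immediate early genes, 6 were lower and 2 higher, while 8 had a negative and 10 a positive log2 fold change. The median of 0.02 turned to -0.09 with equal sums and without CV 1, -0.01 without GF 1 and -0.07 without GF 2. The immediate early genes named next are all among the lower ones. The transcription factor egr1 had 0.542, 0.505 and 0.624 FPKM in GF, against 1.93, 1.24 and 3.50 FPKM in CV (log2 fold change -0.99, standard error 0.27). JUN, a subunit of the AP-1 factor, had 11.4, 12.7 and 13.7 FPKM in GF, against 33.7, 15.3 and 33.4 FPKM in CV (-0.99, standard error 0.28), and BTG2, which restrains proliferation, had -0.94. Of 23 clock and light genes, 4 were lower (17.4%, near the 16.4% of all genes) and 0 higher, with a median of -0.17 that kept its sign under the rescalings and turned positive without CV 2, without GF 3 and at a mean of at least 5 FPKM, and was -0.38 without CV 1, -0.11 without CV 3 and -0.34 without GF 1. PER1, a repressor of the circadian loop, had 0.362, 0.429 and 0.307 FPKM in GF, against 0.85, 1.40 and 3.01 FPKM in CV (-0.93, standard error 0.28). Both egr1 and PER1 were under 1 FPKM in every GF sample and passed the filter through CV. BMAL1 (ENSDARG00000035732), an activator of the same loop, had 1.36, 1.48 and 1.18 FPKM in GF, against 2.05, 2.37 and 3.85 FPKM in CV (-0.66, standard error 0.23). The second and more abundant BMAL1 gene, ENSDARG00000006791, averaged 14.0 FPKM in GF and 12.9 FPKM in CV (0.10).

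Stress pathways had positive medians, of 0.07 to 0.29. Those of p53 targets and the integrated stress response were among the highest of the 37 lists. Of 14 p53 targets, 13 had a positive log2 fold change, but 2 were higher and 0 lower in GF at a nominal p under 0.05. Their median was 0.27 (0.17 to 0.36 over the rescalings), which was 0.15 without CV 1 and 0.15 without GF 1. The cyclin CCNG1 had 294.5, 329.8 and 364.2 FPKM in GF, against 252.1, 270.7 and 214.0 FPKM in CV (0.42, standard error 0.15), and rps27l, a ribosomal protein homolog, had 0.45. Of 23 oxidative stress genes, 3 were lower (13.0%, under the 16.4% of all genes) and 0 higher. Their median was 0.17 (0.04 to 0.24), which was 0.27 without CV 2, 0.03 without CV 3 and 0.08 without GF 1. The lower ones were the pentose phosphate enzymes TALDO1 (-1.18) and TKT (-0.72) and KEAP1, the sensor that holds back Nrf2 (-1.04). Of 26 genes of the unfolded protein response, 4 were lower (15.4%, near the 16.4% of all genes) and 0 higher. The median of 0.07 turned to -0.05 with equal sums and lay between 0.00 and 0.12 with 1 sample left out. After quantile normalization it was 0.07, under the 0.12 of all genes. HSPA5, the main chaperone of the endoplasmic reticulum, had 170.7, 193.3 and 201.0 FPKM in GF, against 283.1, 219.8 and 283.7 FPKM in CV (-0.47, standard error 0.15). The lectin chaperone CANX had -1.16. Of 16 genes of the integrated stress response, 1 was lower and 0 higher, with a median of 0.29 (0.16 to 0.35), which was 0.05 with sample weights, 0.17 without CV 1, 0.10 without CV 3, 0.06 without GF 1 and 0.49 without GF 2. The lower one was PSPH, the last enzyme of serine synthesis (-0.74). Of 14 CCT and prefoldin genes, which fold tubulin and actin, 3 were lower (21.4%) and 0 higher. Their median was 0.17 (0.04 to 0.24, and 0.03 without CV 3). After quantile normalization that median was 0.07, under the 0.12 of all genes. The lower ones were cct2 (ENSDARG00000087206, -1.13), CCT2 (ENSDARG00000104674, -0.94) and TCP1 (-0.58), and since the first 2 share a name their reads may have been divided between them.

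Among the metabolic lists, small differences in both directions were found. Of 22 TCA cycle genes, 6 were lower and 0 higher in GF, with a median of -0.09 (-0.22 to -0.03 over the rescalings), which was -0.04 without CV 1 and -0.05 without GF 3. The 2-oxoglutarate dehydrogenase ogdha had 3.96, 5.02 and 4.59 FPKM in GF, against 11.6, 7.26 and 18.9 FPKM in CV (log2 fold change -1.21, standard error 0.30). A second gene of that enzyme, OGDH (-0.80), and DLAT, the acetyltransferase of pyruvate dehydrogenase (-1.06), were lower too. Of 27 glycolysis genes, 1 was lower (PFKL ENSDARG00000099755, -0.51) and 2 were higher, GAPDHS (0.43) and ALDOC (0.30), with a median of 0.13 (0.00 to 0.20), which was 0.21 without GF 1, 0.08 without GF 2 and 0.07 without GF 3. After quantile normalization it was 0.03, under the 0.12 of all genes. Of 20 cholesterol synthesis genes, 1 was lower and 2 higher, with a median of 0.25 (0.15 to 0.42, and 0.13 without CV 1). The lower one was srebf2, the transcription factor that turns the pathway on, with 1.94, 1.82 and 1.19 FPKM in GF, against 5.67, 3.38 and 9.69 FPKM in CV (-1.37, standard error 0.32). The higher ones were the enzymes MSMO1 (0.56) and MVD (0.51), on the other side from their regulator.

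Lists of mitochondrial and lysosomal complexes had positive medians. Of 75 genes of the mitochondrial ribosome, 70 had a positive log2 fold change, but 2 were higher and 1 lower at a nominal p under 0.05, with a median of 0.18 (0.05 to 0.24 over the rescalings), which was 0.28 without CV 2 and 0.09 without CV 3. MRPS23 had 27.0, 25.2 and 26.8 FPKM in GF, against 18.7, 20.7 and 19.3 FPKM in CV (0.41, standard error 0.14), and mrpl39 was the lower one with -0.55. The list's median level was 32.6, 32.5 and 34.6 FPKM in GF, against 28.5, 32.4 and 26.4 FPKM in CV, where CV 2 lay next to the GF samples. Of the 13 mitochondrially encoded genes, 0 were lower and 0 higher, with a median of 0.17 (0.04 to 0.24, and 0.31 without CV 2). After quantile normalization that median was 0.05, under the 0.12 of all genes. MT-CYB, a subunit of respiratory complex III, had 3812, 3515 and 3544 FPKM in GF, against 2937, 3175 and 2328 FPKM in CV, without overlap (0.38, adjusted p = 0.26 from limma). Of 26 V-ATPase genes, which acidify lysosomes and synaptic vesicles, 4 were higher and 2 lower, with a median of 0.25 (0.12 to 0.32), which was 0.38 without CV 2 and 0.16 without GF 1. ATP6V1B2 (ENSDARG00000043465) had 47.9, 37.3 and 47.9 FPKM in GF, against 28.7, 36.9 and 32.6 FPKM in CV (0.42, standard error 0.16), and its second gene (ENSDARG00000013443) had 0.19. The accessory proteins atp6ap1a (-0.82) and atp6ap1la (-0.75) were the lower ones. Of these, atp6ap1la averaged 0.48 FPKM in GF and passed the filter through CV (1.56 FPKM). Of 36 tRNA synthetases, 7 were lower (19.4%, near the 16.4% of all genes) and 0 higher. Their median of -0.02 turned positive after median-of-ratios rescaling and quantile normalization and lay between -0.12 and 0.08 with 1 sample left out. EPRS1, the largest enzyme of the multisynthetase complex, had 10.4, 8.32 and 6.90 FPKM in GF, against 23.0, 14.6 and 31.4 FPKM in CV (-1.29, standard error 0.27), and MARS1 (-1.31) and IARS1 (-1.35) of the same complex were lower as well.

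**Figure D5:**
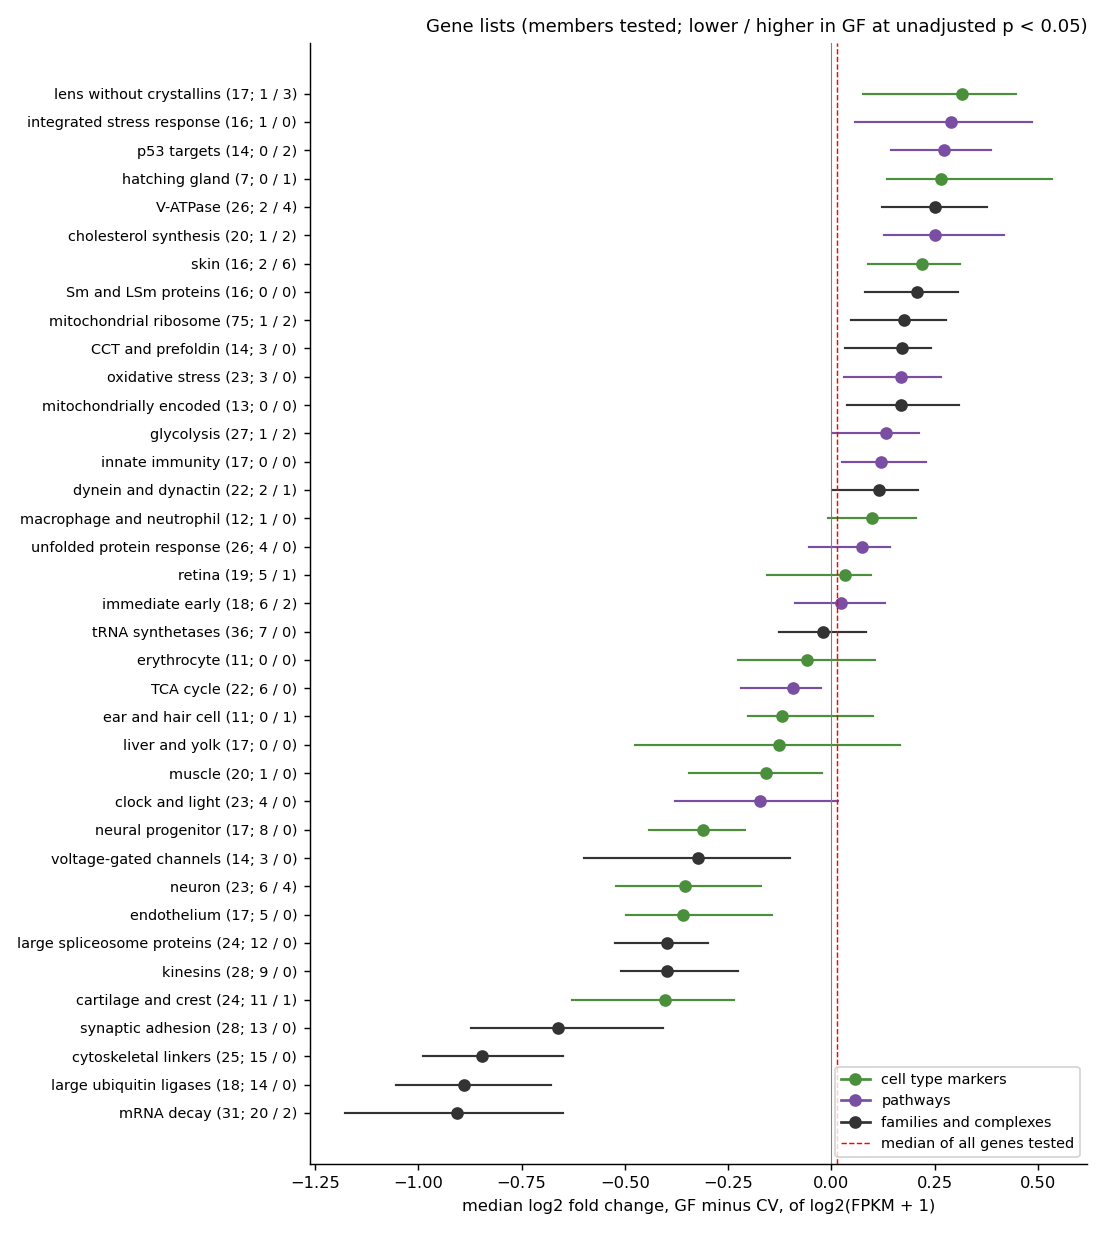
Median log2 fold change, GF minus CV, of the tested members of each of the 37 lists, with a bar for its range over 3 rescalings and the fits without each sample, coloured by the kind of list. Brackets give the members tested and those lower and higher in GF at a nominal p under 0.05, and the dashed line is the median of all genes (0.01), with mRNA decay at -0.91 and lens at 0.32 at the ends of the order, where the bars of neighbouring lists overlap.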

How the data were processed

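Reads had been aligned to GRCz11 with HISAT2 2.1.0, and the authors deposited 1 FPKM value per gene and sample, estimated with StringTie 1.3.4d, per the study's methods and the submitters' processing notes. Their read counts (HTSeq 0.11.0, DESeq2 1.29.13) were left out, so count models could not be used. Groups came from the labels, and the other 3 samples of the series entered only 1 alternative. From the deposited FPKM, log2(FPKM + 1) of the genes with a mean of at least 1 was compared between GF and CV with limma 3.58.1 in R 4.3.3 (lmFit, eBayes with trend, no block, no rescaling). The code was tested on simulated data. Tables were made with Python 3.11.15 and pandas 2.3.3. Symbols came from the gene name table, and 29201 of 32520 IDs had one. List names were matched to symbols, also without a final a or b.

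The genes named were every gene with an adjusted p under 0.05, the 12 largest differences in each direction among genes with a symbol, a mean of at least 5 FPKM, a nominal p under 0.05 and no overlap, and, of each list, the 3 members with the smallest p and, for markers, the 3 most abundant. Other genes named were chosen after their values were seen. The members and lists were chosen with earlier results of these data known. The alternatives were a pseudocount of 0.1, a filter at 5 FPKM, no filter, 3 rescalings, all 9 samples in the model, no trend, sample weights, a replicate block and the fits without each sample in turn. The genome table at hand is of another build and was used for no coordinates or lengths, and no sequences are shown.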

Additional observations from a re-analysis of the deposited data

How the results depend on the processing

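ZBTB18 kept its direction under all 16 alternatives, with log2 fold changes of -2.78 to -2.27. At an adjusted p under 0.05 from limma, 0 genes were lower in GF with no filter, 1584 lower and 44 higher with sample weights, and 1276 lower and 27 higher with a replicate block. Leaving out each sample gave 0 to 1827 lower and 0 to 103 higher, the highest of both without CV 2. The 3 settings with many calls shared 1160 of the genes lower. The weights were 1.08, 3.88 and 0.997 for GF 1, 2 and 3 and 1.12, 0.430 and 0.499 for CV 1, 2 and 3. GF and CV samples with the same replicate number had correlations of their deviations of -0.06, 0.14 and 0.31. The last was the highest of any GF and CV sample, while GF 2 correlated best with CV 1 (0.26). The labels do not say whether the numbers pair the samples, and correlations among so few samples cannot decide it. At a nominal (unadjusted) p under 0.05, 1189 of the 8997 genes with a mean of at least 5 FPKM were lower. With no filter, 837 of 28499 genes were higher. Of 16089 genes, 998 were higher with median-of-ratios rescaling, 159 with equal sums, 1334 after quantile normalization and 322 with the replicate block. Leaving out each sample gave 1740 to 3050 lower and 177 to 1503 higher. The groups did not overlap, with GF lower, in 1243 of the 8997 genes with a mean of at least 5 FPKM. With GF higher, they did not overlap in 2551 genes with median-of-ratios rescaling, 640 with equal sums and 2955 after quantile normalization. With 1 sample left out these counts were 2951 to 4379 and 1725 to 3971. Fewer samples make a lack of overlap easier to meet, so these counts cannot be set against those of the full groups. The counts also depend on how many genes and samples were used, and other causes of these differences were not tested. The medians of 25 of 37 lists and the fold changes of 157 of 169 named genes kept their sign in every alternative that tests them. The correction for gene length was not run, since no lengths on the build of the files were at hand. Without read counts, the precision of low FPKM values is unknown.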

Other observations

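The 12 genes with the smallest nominal p included 7 that no comparison above describes, chosen here after their values were seen, all lower in GF, and limma gave all of them the same adjusted p of 0.111. The secreted vitamin K-dependent protein proza had 2.19, 1.55 and 2.297 FPKM in GF, against 12.9, 7.44 and 8.08 FPKM in CV (log2 fold change -1.77, standard error 0.24). The translation initiation factor eif5b, which joins the ribosomal subunits, had 14.0, 17.3 and 14.1 FPKM in GF, against 68.4, 36.3 and 45.5 FPKM in CV (-1.62, standard error 0.23). PAFAH1B1, the LIS1 protein needed for the migration of neurons in mammals, had 8.28, 7.62 and 7.31 FPKM in GF, against 21.5, 14.8 and 27.8 FPKM in CV (-1.31, standard error 0.23), whereas PAFAH1B3 of the same complex was among the genes higher in GF. The growth factor receptor FGFR2 had 8.82, 8.02 and 8.76 FPKM in GF, against 25.3, 16.2 and 32.7 FPKM in CV (-1.38, standard error 0.24). ODC1, the first enzyme of polyamine synthesis, had 14.2, 11.9 and 11.3 FPKM in GF, against 29.2, 22.3 and 37.4 FPKM in CV (-1.16, standard error 0.21). PMEPA1, a membrane protein that dampens TGF-beta signalling, had a log2 fold change of -1.38 and ssbp3b, a cofactor of LIM-homeodomain factors, had -1.19. The groups overlapped in none of these genes.

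Of 948 symbols carried by exactly 2 tested genes, both genes were lower in GF at a nominal p under 0.05 for 93 and both higher for 7, while 177 had 1 lower gene and 45 had 1 higher gene with the other past neither limit. In 625 symbols neither gene was past that limit. Of all genes tested, 16.4% were lower and 3.15% higher, and whether genes of a symbol moved together beyond those shares was not tested. STMN2 was the single symbol with 1 gene lower and 1 higher. ENSDARG00000070537 is described above, and ENSDARG00000033234 had 151.0, 124.0 and 138.0 FPKM in GF, against 95.5, 119.0 and 101.0 FPKM in CV (log2 fold change 0.39), without overlap of the groups. Reads shared between such paralogs were not assessed.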
